A study of Mus musculus with 14 samples.

Results

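The clustered histone genes are the mouse genes whose symbols begin with Hist1h, Hist2h, Hist3h or Hist4h, and they were chosen by symbol alone. They were 68 of the 24421 gene entries of the deposited count tables. Of these, 6 encode the linker histone H1, 18 encode H2A, 19 encode H2B, 12 encode H3 and 13 encode H4. The Hist1 cluster on chromosome 13 holds 54 of them, the Hist2 cluster on chromosome 3 holds 10, the Hist3 cluster on chromosome 11 holds 3, and Hist4h4 lies alone on chromosome 6. Their RNA was followed in polyA RNA libraries from mouse gastric tumours that had been transplanted and collected 2 months later. The 12 libraries formed 4 groups of 3: TM, TMP and TMPC tumours grown under the skin (subcutaneous), and TMPC tumours labelled orthotopic. That term means growth in the organ that matches the tumour type. The sources used here do not spell out the letters of these abbreviations, the host strain or the origin of the grafted cells, and the abbreviations serve only as names. No label ties a replicate to an animal of its own. The p-values below therefore set group differences only against the spread between libraries of a group. How much of that spread is technical variation is not given.

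Histone H2A, H2B, H3 and H4 form the core of the nucleosome, around which DNA is wrapped, and H1 binds the linker DNA between nucleosomes. The clustered genes are known as replication-dependent: dividing cells switch most of them on in S phase, when new DNA has to be packaged. Their mRNAs are the exception among messenger RNAs in that they normally end in a short stem-loop and carry no polyA tail. A polyA library therefore holds only a polyadenylated or carried-over part of them. Replacement histones such as H2afz (H2A.Z) and H3f3b (H3.3) come from genes outside the clusters, have introns and polyA tails, and are made throughout the cell cycle.

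The stem-loop was looked for in the gene models of GENCODE M21 on GRCm38 (mm10), on the transcribed strand, as a 16-base motif. The motif was a stem arm of 6 bases, a loop of 4 bases and the returning arm of 6 bases, with the bases that are the same in the stem-loops of most animal histone mRNAs held fixed. It was present in 46 of the 68 genes, always within 100 bases after the stop codon (22 to 59 bases from it). Those 100 bases held it in 0.0185% of 37739 other protein-coding transcripts, all with at least 100 bases after the stop codon. The 68 were counted by gene and include models that end sooner. The sequences below were chosen because they belong to the most abundant clustered histone RNAs and to those that passed a test. Capitals mark the stem, which can pair with itself, and the coordinates run from the first to the last capital.
Hist1h1c (chr13:23739512-23739527, plus strand): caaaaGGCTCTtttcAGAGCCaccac
Hist3h2a (chr11:58955172-58955187, plus strand): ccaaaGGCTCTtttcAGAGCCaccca
Hist1h2ab (chr13:23751572-23751587, plus strand): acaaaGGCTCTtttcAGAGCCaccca
Hist3h2ba (chr11:58949349-58949364, plus strand): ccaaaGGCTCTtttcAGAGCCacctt
Hist1h3c (chr13:23745047-23745062, minus strand): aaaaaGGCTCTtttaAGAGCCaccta
Hist1h3g (chr13:23535889-23535904, plus strand): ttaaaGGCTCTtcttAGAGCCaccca
Hist1h4i (chr13:22040966-22040981, minus strand): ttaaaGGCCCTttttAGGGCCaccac
Hist1h4b (chr13:23757366-23757381, plus strand): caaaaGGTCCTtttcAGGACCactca
The stem GGCTCT with AGAGCC was found in 34 genes, which are all 34 of the H1, H2A, H2B and H3 genes with the pattern. All 12 H4 genes with the pattern had another stem, GGCCCT with AGGGCC in 10 and GGTCCT with AGGACC in 2. Of the 22 genes without a match, 15 have models that end less than 20 bases after the stop codon, where the stem-loop would lie outside the model, and 1 is a pseudogene with no coding part (Hist3h2bb-ps). Hist1h2bc, the most abundant of all, and Hist2h2be have no match although their models run on for 742 and 2192 bases after the stop codon.

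Promoters were read from RefSeq's GRCm38.p6 table, which matched 62 of the 68 genes, as the 250 bases before the start of transcription. They are shown for the Hist3 neighbours Hist3h2a and Hist3h2ba and for Hist1h1b and Hist1h4i, an H1 and an H4 gene that passed tests below. Capitals mark the motifs on either strand: CCAAT for CCAAT factors, TATAAA for the TATA-binding protein and ATTTGCAT for octamer factors.
Hist3h2a (chr11:58954435-58954684, plus strand): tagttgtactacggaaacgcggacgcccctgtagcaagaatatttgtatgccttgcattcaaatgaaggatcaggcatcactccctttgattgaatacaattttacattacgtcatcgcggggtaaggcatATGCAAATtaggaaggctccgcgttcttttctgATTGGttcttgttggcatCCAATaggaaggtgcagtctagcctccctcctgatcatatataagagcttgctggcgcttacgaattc
Hist3h2ba (chr11:58948661-58948910, plus strand): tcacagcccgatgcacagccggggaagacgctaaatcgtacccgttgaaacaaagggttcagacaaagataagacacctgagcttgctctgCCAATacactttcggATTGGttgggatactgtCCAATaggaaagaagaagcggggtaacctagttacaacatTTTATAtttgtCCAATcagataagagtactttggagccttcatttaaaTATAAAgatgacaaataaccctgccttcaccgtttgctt
Hist1h1b (chr13:21780626-21780875, minus strand): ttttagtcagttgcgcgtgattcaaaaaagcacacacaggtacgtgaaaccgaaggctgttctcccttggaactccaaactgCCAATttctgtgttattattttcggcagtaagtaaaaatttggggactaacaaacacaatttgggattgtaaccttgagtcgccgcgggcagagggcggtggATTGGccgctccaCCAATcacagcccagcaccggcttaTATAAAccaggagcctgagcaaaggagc
Hist1h4i (chr13:22041363-22041612, minus strand): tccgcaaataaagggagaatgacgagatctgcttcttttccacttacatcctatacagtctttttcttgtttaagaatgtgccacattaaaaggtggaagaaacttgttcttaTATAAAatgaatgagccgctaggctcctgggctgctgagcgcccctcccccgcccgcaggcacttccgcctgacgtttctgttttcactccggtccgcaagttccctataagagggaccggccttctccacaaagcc
CCAAT stood in 82.3% of the 62 promoters, against 33.8% of 32851 promoters in the table. It was in 100% of the H1, H2A and H2B promoters and in 25% of the 12 H4 promoters. TATAAA stood in 46.8%, against 12.4% of all. The octamer ATTTGCAT was in 38.9% of the H2A and 43.8% of the H2B promoters, in none of the H1, H3 and H4 promoters (0%), and in 1.6% of all. A match describes the letters only.

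Across the 12 libraries, total counts were 16584781 to 21107310, and 3 counts correspond to 0.142 to 0.181 CPM (counts relative to the library total, adjusted with TMM factors). The epithelial marker list (6 of 6 genes found in each library) summed to 229 to 7070 CPM. The stomach mucins and trefoil factors Muc5ac, Muc6, Tff1 and Tff2, which were picked after the other results were seen, were present in the 3 orthotopic libraries (Muc5ac 375 to 1076 CPM) and low in the subcutaneous ones, where Muc5ac had 7.87, 0.334 and 4.35 CPM in TM and 0 to 1.13 CPM in TMP and TMPC tumours, and Tff2 had 18.0, 0 and 9.07 CPM in TM tumours. 3 libraries stood apart and bear on the results. Subcutaneous TM replicate 2 had an epithelial sum of 229 CPM, against 3954 and 4235 in the other TM libraries. Orthotopic replicate 3 had a liver marker sum of 5058 CPM. Subcutaneous TMPC replicate 1 had an epithelial sum of 1003 CPM, against 2343 and 3328 in replicates 2 and 3, with Epcam at 117 CPM against 621 and 672. In bulk tissue, fewer cells of a type and less RNA per cell cannot be told apart.

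The clustered histone genes together had 49778 counts, from 47 to 58 genes per library. A few genes made up most of this. Hist1h2bc held 33.9% of the counts, Hist1h2bc and Hist1h1c together 57.1%, and the 7 genes with over 1000 counts 83.1%. Another 22 genes had fewer than 100 counts in all, and 8 had none in any library: Hist1h2ao, Hist1h2ap, Hist1h2bq, Hist1h2br, Hist1h4m, Hist2h2aa1, Hist2h3c1 and Hist2h3c2. For these 8, between 0% and 38.4% of the 100-base windows of the gene model occur in no other gene, so reads of these genes can fit several copies, and the part of this in their zeros was not tested. H2B genes had 49.5% of the counts, H1 24.7%, H2A 12.6%, H4 9.45% and H3 3.69%.

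Summed over all 68 genes, the level was 116, 118 and 146 CPM in the 3 TM libraries, in replicate order. TMP tumours had 288, 175 and 252 CPM. Subcutaneous TMPC tumours had 92.4, 351 and 456 CPM, and orthotopic TMPC tumours 212, 163 and 215 CPM. All TMP libraries were above all TM libraries, whereas the subcutaneous TMPC group held both the lowest and the 2 highest sums of the 12 libraries. The group means were 126 ± 16.8 CPM in TM, 238 ± 57.2 in TMP, 300.0 ± 187 in subcutaneous TMPC and 197 ± 29.1 in orthotopic TMPC tumours (SD, n = 3). Without replicate 1 the subcutaneous TMPC mean was 404 CPM.

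**Figure D1:**
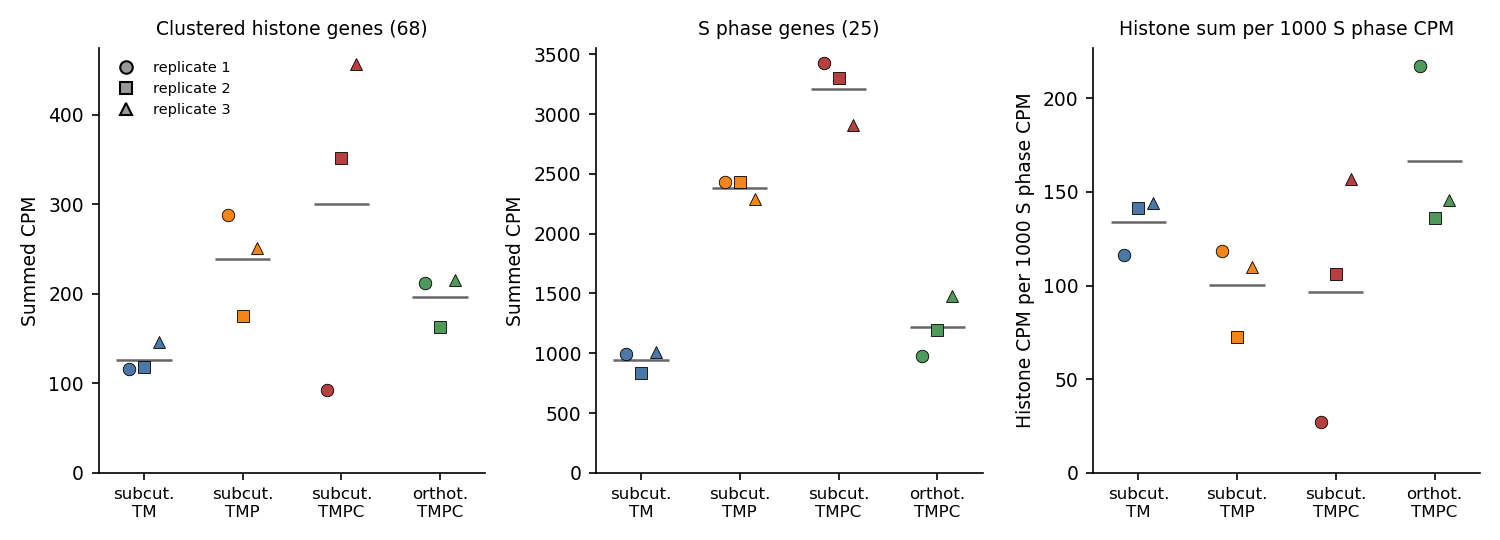
Summed CPM of the 68 clustered histone genes (left) and of 25 S phase genes (middle), and the first per 1000 CPM of the second (right), for each library; bars are means of 3 libraries. Subcutaneous TMPC replicate 1 has the lowest histone sum, 92.4 CPM, and the highest S phase sum, 3426 CPM.

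The S phase list (25 genes of DNA replication such as the Mcm helicase genes, Pcna and Rrm2) gave 831 to 1013 CPM in TM, 2290 to 2432 in TMP, 2907 to 3426 in subcutaneous TMPC and 975 to 1476 in orthotopic TMPC tumours. Set against this sum, the clustered histone level per 1000 S phase CPM was 117, 142 and 144 in TM and 118, 72.3 and 110 in TMP tumours. It was 27.0, 106 and 157 in subcutaneous TMPC and 217, 136 and 146 in orthotopic TMPC tumours. The ratio thus did not follow the order of the S phase sums, and its lowest value, in subcutaneous TMPC replicate 1, came with the highest S phase sum of all 12 libraries.

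In that library the shortfall ran through most of the group. Of the 59 clustered histone genes with a count in subcutaneous TMPC tumours, 49 were lower in replicate 1 than in both other replicates and 1 was higher than in both. Over all 18579 genes with a count there, 33.1% were lower than in both. Hist1h2bc, an H2B gene, had 33.8 CPM against 110 and 158, and Hist1h1c, which encodes the linker histone H1.2, had 16.6 CPM against 44.1 and 102. As a ratio, among genes with a count in replicate 1, the gap was widest for Hist3h2ba, the H2B gene of the Hist3 cluster, at 1.05 CPM against 49.0 and 36.5. Among the S phase genes 15 of 25 were higher in replicate 1 than in both others, as were 40.4% of all genes, and 4 were lower. Of the 15 G2 and M phase genes 5 were higher and 5 lower. The histone chaperone genes were 9 higher and 6 lower of 21, and the replacement and variant histone genes 3 higher and 8 lower of 14. Epithelial markers were low in the same library, as given above, and their part in the low histone levels was not tested.

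**Figure D2:**
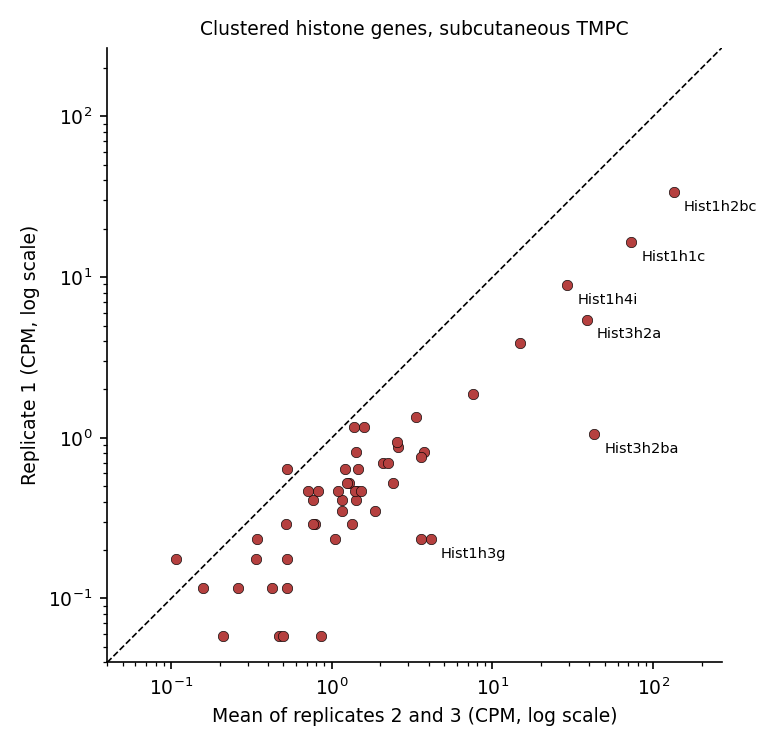
Level of each clustered histone gene in subcutaneous TMPC replicate 1 against the mean of replicates 2 and 3 (CPM, both axes logarithmic; genes at 0 on either axis are not drawn). The dashed line marks equal levels; Hist3h2ba lies at 1.05 against 42.7 CPM.

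TMP and TMPC tumours were each compared with TM tumours to see which histone genes differ between the tumour types at one site. Both comparisons use the same 3 TM libraries and are not independent of each other. With edgeR's quasi-likelihood test and Benjamini-Hochberg adjustment, 9 clustered histone genes rose in TMP against TM and 0 fell. Over all 15277 genes tested 14.3% rose (27.7% changed in either direction). In TMPC against TM 14 rose and 0 fell, where 18.0% of all genes rose (35.8% changed in either direction). Only 41 of the 68 genes had counts high enough to be tested, and a gene could pass that filter through the group where it was high, so the 41 do not stand for all 68. Their median log2 fold change was 1.58 in TMP and 1.70 in TMPC, against -0.07 in both comparisons over all genes. Over the 59 clustered histone genes with at least 1 count in these 9 libraries, the 3 TMP values were all above the 3 TM values for 32 and all below for 0 (all genes: 22.1% above, 19.5% below). For TMPC against TM these counts were 22 and 0 (all genes: 20.7% above, 18.5% below).

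These counts depended on single libraries, and the share of all genes called higher moved with them. The main shares were 22.0% of the clustered histone genes tested in TMP and 34.1% in TMPC. In TMP against TM, 0 of 41 passed without TMP replicate 1 (6.75% of all genes) and 0 of 44 without TMP replicate 3 (7.99%). There were 1 of 44 without TM replicate 1 (11.4%), 2 of 44 without TMP replicate 2 (8.70%) and 3 of 44 without TM replicate 3 (10.8%). Without TMPC replicate 2 or 3 there were 5 of 42 and 5 of 43 (12.4% and 12.8%). In each of these 7 fits the share of clustered histone genes lay below that of all genes. Above it were 10 of 44 without TM replicate 2 (2514 of all 15668 genes), 13 of 44 without TMPC replicate 1 (14.9%) and 21 of 44 without both (20.6%). In TMPC against TM the share lay below that of all genes with 3 of 43 without TMPC replicate 3 (14.2%), 4 of 42 without TMPC replicate 2 (13.3%) and 6 of 44 without TM replicate 1 or 3 (15.5% and 14.4%). It lay above with 9 of 44 without TMP replicate 3 (15.2%), 10 of 41 without TMP replicate 1 (16.4%) and 12 of 44 without TMP replicate 2 (16.6%). It also did with 18 of 44 without TMPC replicate 1 (16.8%), 19 of 44 without TM replicate 2 (20.7%) and 31 of 44 without both (23.2%). Without TMPC replicate 1, 8 of the 9 calls in TMP and 13 of the 14 in TMPC were kept, the exceptions being Hist1h4b and Hist1h4d. Without TM replicate 2, 5 and 10 were kept, and with both left out 9 and 14. No fit called a clustered histone gene lower in either comparison.

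Among the H1 genes, 1 of 5 tested rose in each comparison. The background for this and for the class counts below was 14.3% of all genes in TMP and 18.0% in TMPC tumours. Hist1h1b, which encodes H1.5, had 0.160, 0.133 and 0.183 CPM in TM tumours, or 2 to 4 counts per library. TMP tumours had 2.44, 1.85 and 2.12 CPM and subcutaneous TMPC tumours 0.234, 2.30 and 4.90 CPM. No TM library reached the lowest TMP or TMPC library. The log2 fold change was 3.65 ± 0.96 (SE) in TMP (adjusted p = 0.0265, edgeR) and 3.85 ± 0.96 in TMPC (adjusted p = 0.0174; 4.43 without TMPC replicate 1, adjusted p = 0.00305). The call was missed in 5 of 15 alternatives in TMP and 1 of 14 in TMPC. A total of 14 instead of 15, here and below, means that the gene could not be tested in 1 alternative. Its counts were too low for the fit of only the 2 groups compared. Hist1h1c, the most abundant H1 gene, did not share the rise of Hist1h1b: it had 44.7, 37.2 and 53.0 CPM in TM, 73.5, 27.8 and 53.5 in TMP, and 16.6, 44.1 and 102 in subcutaneous TMPC tumours. Its groups overlapped, with log2 fold changes of 0.16 ± 0.59 and 0.22 ± 0.59 (adjusted p = 0.856 and 0.799, edgeR). The testis H1 gene Hist1h1t had 0 to 3 counts per library.

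Of the 10 H2A genes tested, 2 rose in TMP and 5 in TMPC tumours, and all 10 estimates were positive in both. Hist1h2ab had 0.266, 0.200 and 0.458 CPM in TM, 1.55, 1.31 and 1.60 CPM in TMP, and 0.468, 1.44 and 1.44 CPM in subcutaneous TMPC tumours. Its log2 fold changes were 2.19 ± 0.57 and 1.77 ± 0.57 (adjusted p = 0.0258 and 0.0410, edgeR). Hist1h2ad passed in TMP tumours (1.58 ± 0.49, adjusted p = 0.0442). Hist1h2ae, Hist1h2af, Hist1h2ag and Hist1h2ai passed in TMPC tumours, with log2 fold changes of 2.54 ± 0.69, 3.48 ± 0.87, 3.07 ± 0.89 and 2.24 ± 0.69 (edgeR). These 4 calls were missed in 5 of 15, 1 of 15, 5 of 14 and 9 of 14 alternatives. The calls of Hist1h2ab were missed in 4 of 15 (TMP) and 10 of 14 (TMPC), and that of Hist1h2ad in 9 of 15. These genes lie in the Hist1 cluster and encode nearly identical proteins, and between 11.6% and 69.3% of the 100-base windows of their models are unique, so how counts were divided between them is uncertain. Hist3h2a, the most abundant H2A gene, had 11.1, 13.0 and 12.7 CPM in TM tumours. It had 20.1, 19.2 and 20.4 CPM in TMP and 5.44, 39.7 and 37.4 CPM in subcutaneous TMPC tumours. TMP lay above TM in every library, while the TMPC group reached both below and above TM. Neither difference passed (0.65 ± 0.60 and 1.10 ± 0.60, adjusted p = 0.434 and 0.180, edgeR). Without TMPC replicate 1 both did, at 0.70 and 1.65 (adjusted p = 0.0226 and 0.00267). Trim17, which shares 708 of the 2146 exonic bases of Hist3h2a on the same strand, had 0.229 to 1.60 CPM over the 12 libraries. Hist1h2aa, a testis H2A gene, had 2 counts in all.

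The H2B genes were uneven. Hist3h2ba had 1.01, 0.267 and 1.24 CPM in TM tumours. It had 18.5, 13.2 and 14.5 CPM in TMP and 1.05, 49.0 and 36.5 CPM in subcutaneous TMPC tumours. TMP and TM were far apart, and 1 TMPC library lay within the TM range. The log2 fold changes, 4.15 ± 1.16 and 5.04 ± 1.21, were the largest of the 41 tested genes in each comparison (adjusted p = 0.0329 and 0.0150, edgeR). Without TMPC replicate 1 the TMPC value was 5.64 (adjusted p = 0.00256, edgeR), and without TM replicate 2 the TMP value was 3.78 and no longer passed (adjusted p = 0.0561). In all, the calls of Hist3h2ba were missed in 8 of 15 alternatives in TMP and 1 of 15 in TMPC. Hist3h2ba (chr11:58948920-58949533) lies on the same strand as its neighbour Hist3h2a (chr11:58954685-58956830). Hist1h2bc (chr13:23684199-23692908, 2 exons) had 32.6, 27.4 and 45.2 CPM in TM tumours. It had 98.6, 58.0 and 86.8 CPM in TMP and 33.8, 110 and 158 CPM in subcutaneous TMPC tumours. All TMP libraries exceeded all TM libraries, but neither difference passed (1.17 ± 0.50 and 1.46 ± 0.50, adjusted p = 0.109 and 0.0507, edgeR); without TMPC replicate 1 both did (1.21 and 1.93, adjusted p = 0.0233 and 0.00684). Of the 11 H2B genes tested, Hist3h2ba alone was called. Negative estimates came from 4 in TMP tumours, among them Hist1h2bk, named here after its values were seen, at -1.38 ± 0.71 (adjusted p = 0.175), and Hist1h2be at -0.92 ± 0.77 (adjusted p = 0.394). Hist1h2be turned to 0.02 without TM replicate 2, the library low in epithelial markers, where it stood at 6.34 CPM against 1.33 and 2.34 in the other TM libraries. In the same library Hist1h2bk stood at 5.54 CPM, against 0.958 and 1.92 in the other TM libraries. Its TMP values were 1.61, 1.09 and 0.705 CPM. Hist2h2be and Hist1h2bg had log2 fold changes of 0.53 ± 0.55 and 0.73 ± 0.53 in TMP and 0.61 ± 0.55 and 0.69 ± 0.53 in TMPC tumours, with no call. The testis H2B gene Hist1h2ba had 2 counts in all.

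The H3 genes rose in 1 of 7 tests in TMP and 2 of 7 in TMPC tumours. Hist1h3c had 0.213, 0.133 and 0.320 CPM in TM, 1.43, 0.707 and 1.03 in TMP, and 0.526, 1.28 and 1.19 in subcutaneous TMPC tumours. No TM library reached any TMP or TMPC library, and the log2 fold changes were 2.16 ± 0.57 and 2.07 ± 0.57 (adjusted p = 0.0276 and 0.0252, edgeR). Hist1h3g had 0.160, 0.467 and 0.137 CPM in TM and 0.234, 3.90 and 4.33 CPM in subcutaneous TMPC tumours, of which the lowest lay within the TM range (3.40 ± 1.04, adjusted p = 0.0349, edgeR; 4.01 without that library, adjusted p = 0.00715). The call of Hist1h3g was missed in 7 of 14 alternatives, and those of Hist1h3c in 6 of 15 (TMP) and 5 of 14 (TMPC). Hist1h3d, the H3 gene with the highest mean level, stood at 0.61 ± 0.28 CPM in TM, 1.87 ± 0.48 in TMP and 2.02 ± 1.19 in subcutaneous TMPC tumours (SD, n = 3), with no call.

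H4 was the class with the largest share of calls among genes tested, 4 of 8 in TMP and 5 of 8 in TMPC tumours. Hist1h4i (chr13:22040636-22041362), the most abundant H4 gene, had 3.56, 4.00 and 4.35 CPM in TM tumours. TMP tumours had 18.4, 9.30 and 13.7 CPM and subcutaneous TMPC tumours 8.89, 30.8 and 27.8 CPM. The 3 TM libraries were the lowest of the 12. Its log2 fold changes were 1.75 ± 0.48 in TMP (adjusted p = 0.0309, edgeR) and 2.44 ± 0.49 in TMPC (adjusted p = 0.00793), and the latter was the single call that held under each of the 15 alternatives tried. The TMP call of Hist1h4i was missed in 5 of 15. Hist1h4b had 0, 3 and 1 counts in TM, 7, 14 and 15 in TMP, and 8, 16 and 15 in subcutaneous TMPC tumours (2.89 ± 0.91 and 3.02 ± 0.91, adjusted p = 0.0465 and 0.0329, edgeR). Hist1h4d and Hist1h4k rose by 2.11 ± 0.60 and 1.90 ± 0.56 in TMP and by 2.00 ± 0.60 and 2.16 ± 0.56 in TMPC tumours on the log2 scale. In TMP the calls of Hist1h4b, Hist1h4d and Hist1h4k were missed in 10 of 14, 8 of 14 and 10 of 15 alternatives. In TMPC they were missed in 6 of 14, 8 of 14 and 4 of 15. Hist1h4j passed in TMPC alone (2.58), and is named here after its values were seen. Its call was missed in 6 of 14 alternatives. Between 35.7% and 100% of the 100-base windows of the models of Hist1h4b, Hist1h4d, Hist1h4i and Hist1h4k are unique. An antisense RNA covers 223 of the 397 bases of Hist1h4b, and whether counting used strand is not given. Hist1h4h and Hist1h4n, among the 10 most abundant genes, gave 0.82 ± 0.63 and 1.61 ± 0.64 in TMP and 1.14 ± 0.63 and 1.42 ± 0.64 in TMPC tumours, with no call. Hist4h4, the lone gene of the Hist4 cluster, had 0 to 5 counts per library.

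Besides the 8 genes with no count anywhere, 6 had 0 counts in all TM libraries, and none of the 6 was high enough for the test. Hist1h2ak had 6, 4 and 1 counts in TMP and 2, 14 and 2 in subcutaneous TMPC tumours, so that most of the latter came from 1 library. Hist1h2bm had 7, 2 and 2 counts in TMP and 3, 4 and 0 in TMPC tumours. Hist1h4f had 3, 3 and 2 counts in TMP and 0, 5 and 12 in TMPC tumours. The other 3 were the testis genes Hist1h1t, Hist1h2aa and Hist1h2ba, with at most 2 counts in any TMP or TMPC library under the skin. These genes were picked out after their values were seen.

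**Figure D3:**
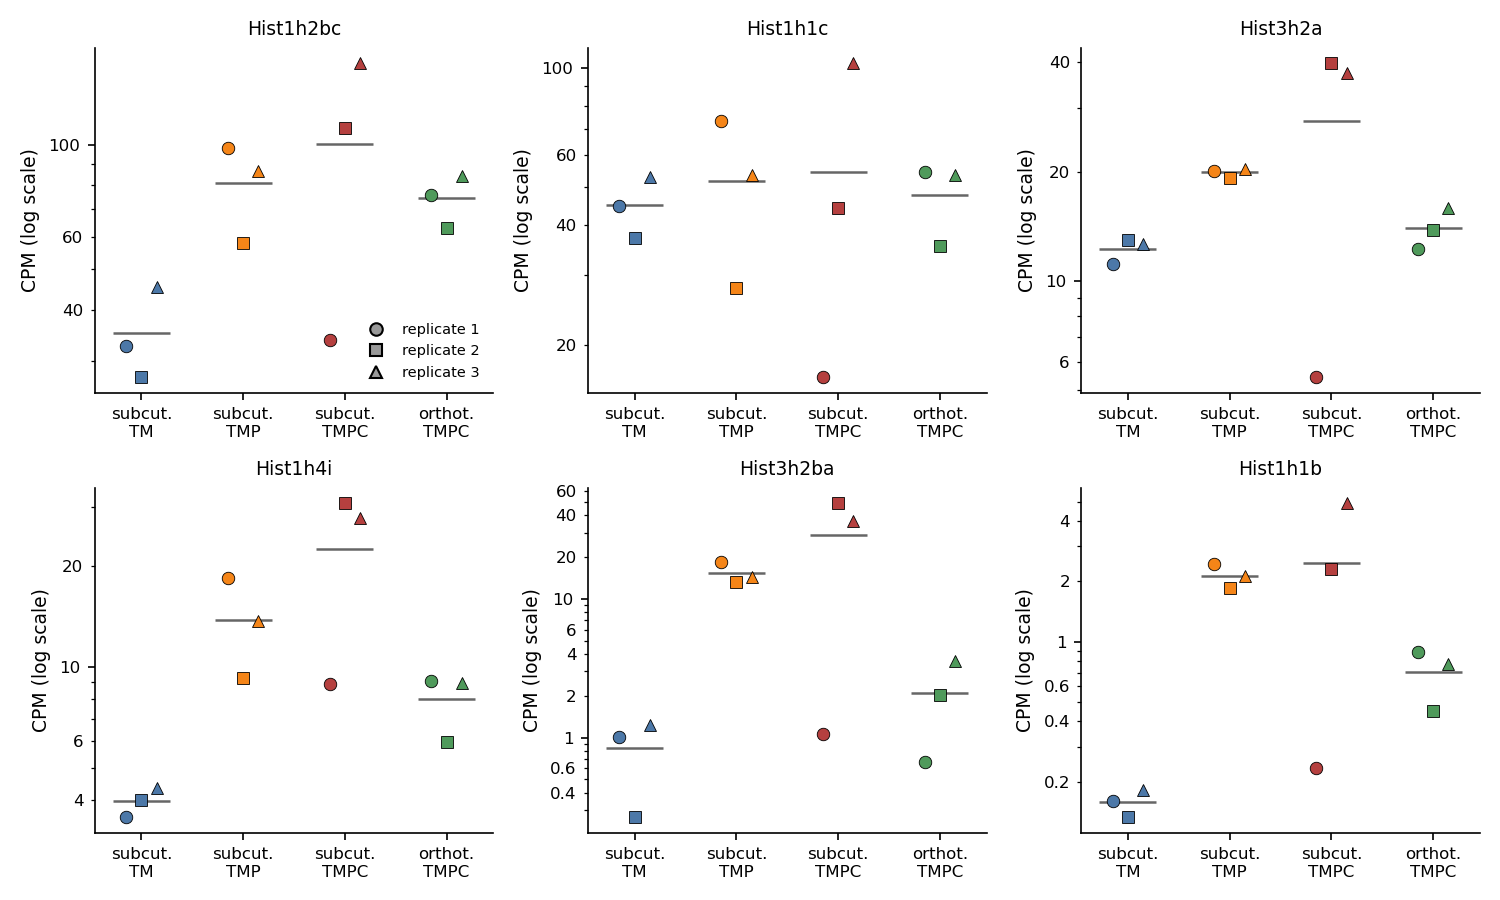
CPM (log axis) of the 5 most abundant clustered histone genes and of Hist1h1b in each library; bars are means of 3 libraries. Hist3h2ba lies between 13.2 and 18.5 CPM in TMP tumours and at or below 1.24 CPM in TM tumours.

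**Figure D4:**
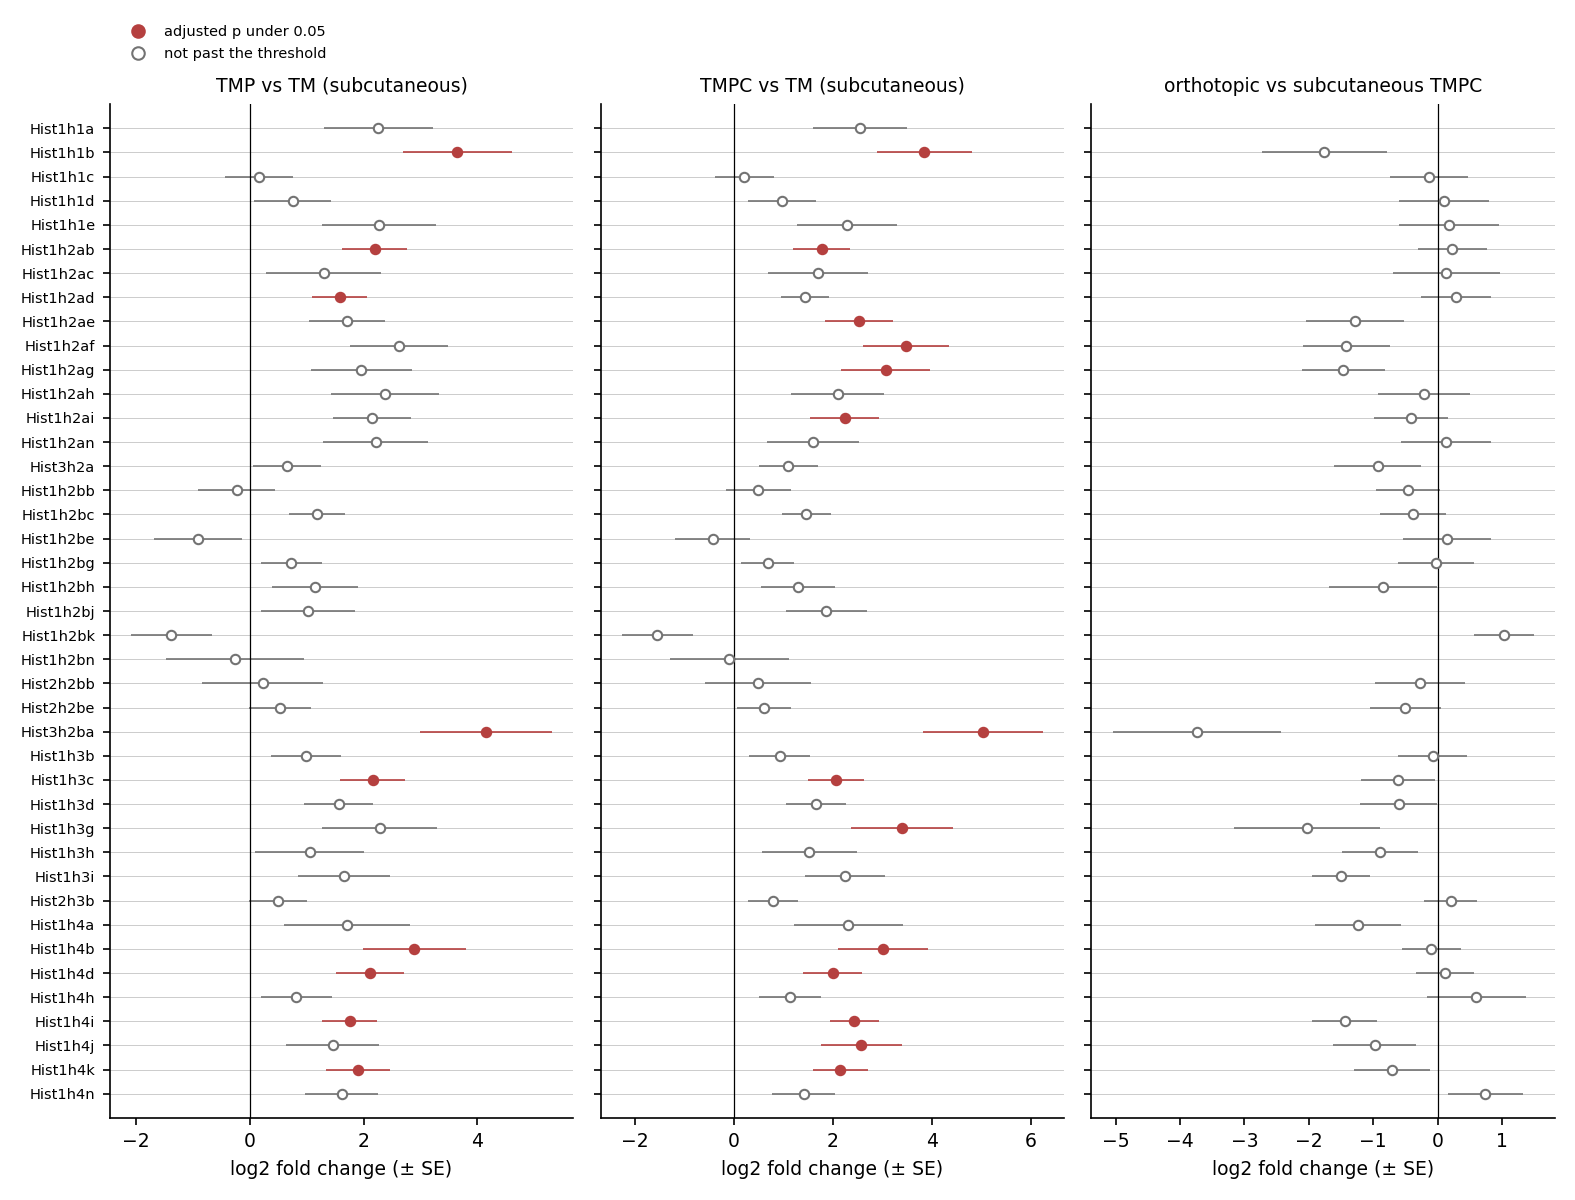
Log2 fold change with its standard error for each clustered histone gene tested, in 3 comparisons, ordered from H1 to H4; filled red points passed an adjusted p of 0.05 (edgeR). The red points in the left (9) and middle (14) panels all lie above 0, and the right panel has none.

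The pathway around histone supply was followed by lists of genes, named here with earlier results of these data known. Genes of histone transcription and 3′ end processing rose in 13 of 24 cases in TMP and 16 of 24 in TMPC tumours against TM, and none fell. Over all genes tested, 14.3% rose in TMP and 18.0% in TMPC tumours, which is the background for each list below. Npat, the coactivator of the histone clusters in S phase, rose by 0.77 ± 0.19 and 0.90 ± 0.19 on the log2 scale, and Casp8ap2 (FLASH), a histone pre-mRNA processing factor, by 0.95 ± 0.18 and 1.12 ± 0.18. Slbp, whose protein binds the stem-loop, had 44.1, 50.7 and 45.6 CPM in TM, 51.0, 63.6 and 61.4 in TMP, and 99.7, 76.9 and 56.4 CPM in subcutaneous TMPC tumours. All Slbp values in TMP and TMPC tumours were above those in TM tumours, and the highest came from TMPC replicate 1, where the histone sum was lowest. The log2 fold change of Slbp was 0.28 ± 0.22 in TMP (adjusted p = 0.358, edgeR) and 0.66 ± 0.22 in TMPC (adjusted p = 0.0472). Histone mRNA decay genes rose in 5 of 11 cases in both comparisons and chaperone genes in 13 and 14 of 21, among them Chaf1b, a subunit of the chromatin assembly factor (1.79 ± 0.39 and 1.97 ± 0.39). The replacement and variant histone genes rose in 7 of 11 cases in both. H2afz had 161, 187 and 249 CPM in TM, 876, 610 and 1019 in TMP, and 922, 1088 and 1075 in subcutaneous TMPC tumours. TMPC replicate 1 was the lowest of its group for H2afz, and also for H3f3b (725 CPM against 1126 and 1424), H2afx (68.5 against 120 and 161), H2afj (114 against 231 and 247) and H1f0 (322 against 544 and 635). These 5 were picked by name. Of the 14 genes of this list with a count there, 8 were lower and 3 higher than in both other replicates. Cenpa was among the higher ones, at 151 CPM against 141 and 138. S phase genes rose in 25 of 25 cases and G2 and M phase genes in 15 of 15 in both comparisons, with medians of 1.32 and 2.02 in TMP and 1.68 and 2.49 in TMPC tumours.

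Markers of other cells differed between the same groups. Macrophage markers (5 genes) summed to 1169 to 2115 CPM in TM, 281 to 540 in TMP and 303 to 486 in subcutaneous TMPC tumours, with no marker at 0. Those of T and NK cells (5 genes) summed to 6.86, 142 and 7.83 CPM in the TM libraries, 0.238 to 1.97 in TMP and 0.413 to 1.29 in TMPC tumours, with up to 3 and 4 of the 5 at 0 in a TMP or TMPC library. B and plasma cell markers (6 genes) gave 13.8, 2774 and 14.6 CPM in TM and at most 1.90 and 1.70 CPM in the other groups. Neutrophil markers (4 genes) gave 118, 3234 and 181 CPM against at most 44.0 and 32.6 CPM. The high value in each case was TM replicate 2, which also had an adipocyte marker sum of 3589 CPM against at most 105 in the other subcutaneous libraries. Skeletal muscle markers (4 genes) summed to at most 1.60 CPM in TM, to 1.36 to 153 in TMP and to 18.4 to 172 CPM in TMPC tumours. Xist, the RNA of the inactive X chromosome of female cells, stood at 191 to 1388 CPM in TM and at most 13.5 CPM in TMP and TMPC tumours, and TM replicate 2 alone of the 3 had 0 counts of the Y-linked Ddx3y. Their part in the histone differences was not tested.

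TMPC tumours were also compared with TMP tumours, both under the skin. No clustered histone gene rose or fell (0 of 41 tested, edgeR), 0 had an unadjusted p under 0.05, and DESeq2 called 0. The background was 0.00%: edgeR called none of 15277 genes, with 465 at an unadjusted p under 0.05, and DESeq2 called 16. In none of the 59 genes with a count were the 3 TMPC values all above or all below the 3 TMP values (all genes: 5.77% above, 5.09% below). The median log2 fold change was 0.26 over the 41 genes and 0.01 over all. Hist3h2ba gave 0.89 ± 1.01, Hist1h4i 0.69 ± 0.47, Hist3h2a 0.45 ± 0.59, Hist1h2bc 0.29 ± 0.49 and Hist1h1c 0.05 ± 0.59. In Hist3h2ba, Hist1h4i, Hist3h2a and Hist1h2bc alike, TMPC replicates 2 and 3 were above all TMP libraries and replicate 1 was below them all. Leaving out replicate 1 raised the 4 estimates to 1.47, 1.08, 0.95 and 0.72, still without a call. S phase genes were called in 0 of 25 cases, with a median of 0.39.

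The same TMPC tumours were compared between sites. Of 38 clustered histone genes tested, edgeR called 0 lower or higher in the orthotopic group, where 13.8% of all 15123 genes were called lower and 14.0% higher (27.8% in all). 3 had an unadjusted p under 0.05 (all genes: 6665 of 15123, edgeR). DESeq2 called 2 of 60 lower, Hist1h4i and Hist3h2ba (3.33%, all genes 15.1%). The median log2 fold change was -0.40, against 0.05 over all genes. Among the 60 genes with a count, the orthotopic values were all below the subcutaneous ones for 4 (6.67%, all genes 21.0%) and all above for 1 (1.67%, all genes 19.9%). By contrast S phase genes fell in 23 of 25 cases (median -1.28) and G2 and M phase genes in 15 of 15 (median -1.51). Fewer calls in one list than in another is a count, and the difference between the lists was not tested. Genes of histone transcription and 3′ end processing fell in 12 of 24 cases, decay genes in 4 of 11, chaperones in 11 of 21 and replacement and variant histones in 5 of 11.

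Subcutaneous TMPC replicate 1 decided much of this. Hist3h2ba had 0.667, 2.04 and 3.54 CPM in orthotopic tumours against 1.05, 49.0 and 36.5 CPM in subcutaneous ones, so that replicate 1 alone lay within the orthotopic range. Its log2 fold change was -3.74 ± 1.31 (adjusted p = 0.0734, edgeR), and -4.32 without replicate 1 (adjusted p = 0.0234). Hist1h4i had 9.11, 5.97 and 8.97 CPM in orthotopic tumours, with replicate 1 of the subcutaneous group again inside that range at 8.89 CPM. The log2 fold change of Hist1h4i was -1.44 ± 0.50 (adjusted p = 0.0734), and -1.84 without replicate 1 (adjusted p = 0.0228). Hist3h2a, at 12.2, 13.8 and 15.9 CPM in orthotopic tumours, moved from -0.93 ± 0.68 (adjusted p = 0.331) to -1.43 (adjusted p = 0.0226). Without replicate 1, 6 of 42 genes tested fell (14.3%, all genes 11.6%), and 12 of 42 did without both replicate 1 and orthotopic replicate 3, the library with liver RNA (28.6%, all genes 18.4%). Hist1h2bc at 75.7, 63.1 and 84.4 CPM and Hist1h1c at 54.4, 35.6 and 53.4 CPM in orthotopic tumours gave -0.38 ± 0.51 and -0.14 ± 0.61, and their subcutaneous values ranged from below to above them. The epithelial sum was 4233 to 7070 CPM in orthotopic and 1003 to 3328 CPM in subcutaneous TMPC tumours, and the liver marker sum 41.1 to 5058 against 0.409 to 0.980 CPM. Fibroblast markers summed to 6552 to 18104 against 3598 to 5369 CPM, endothelial markers to 154 to 398 against 89.7 to 137, megakaryocyte and platelet markers to 33.9 to 49.1 against 6.79 to 17.7, and skeletal muscle markers to 2.40 to 6.22 against 18.4 to 172 CPM. The part of these cells in the site values was not tested.

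Levels of different genes were compared per length, as mean CPM over the 12 libraries per 1000 exonic bases of the GENCODE model, which need not be the model the authors counted on. Hist1h2bc was highest at 63.0 CPM per kb, followed by Hist1h1c at 31.8, Hist3h2ba at 19.2, Hist1h4i at 16.6 and Hist3h2a at 8.58. Hist1h2bg was next at 8.12. The models of these 6 genes run at least 200 bases past the stop codon, whereas those of the next 3, Hist1h4k at 5.63, Hist1h4n at 4.12 and Hist1h4h at 3.96, run 0, 80 and 93 bases past it. In Hist1h1c, Hist1h4i, Hist3h2a and Hist3h2ba the stem-loop shown above is followed by another 840, 330, 1643 and 169 bases. The 30 genes whose models run 100 bases or more past the stop codon held 89.0% of the counts. The median of these 30 was 0.420 CPM per kb (range 0 to 63.0), against 1.09 (0 to 5.63) for the other 37 with a coding part. The exonic length that divides the level includes the bases past the stop codon. A long model thus lowers the value by itself, and no conclusion is drawn from the medians. Hist4h4, with 2515 bases after the stop codon, had 0.0438 CPM per kb.

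**Figure D5:**
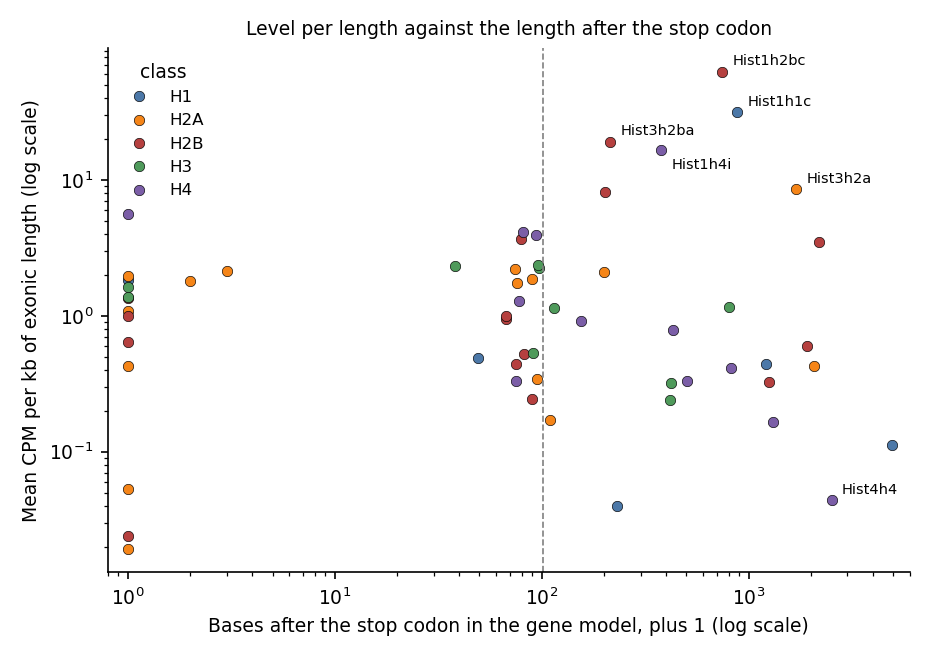
Mean level per kb of exonic length (12 libraries) against the number of bases after the stop codon in the gene model, both on log axes and coloured by histone class; genes with no count are not drawn. Right of the dashed line (100 bases) values range from below 0.1 up to 63.0 CPM per kb, while to the left none exceeds 5.63.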

How the data were processed

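The 12 bulk libraries were sequenced with paired reads of 150 bp from about 1 cm3 of tissue, and 2 single-cell samples were left out. The submitters' processing notes name STAR 2.6.0, the mm10 build and DESeq2. Which counter and annotation the authors used, and whether counting used strand, is not given in the sources used here. Both deposited tables hold raw counts (whole numbers, one for each gene and library) and, beside them, a normalized signal (counts divided by a size factor, per the file headers). Symbols were taken by row position from the second table, because in the first they stand out of step from entry 12291 on. The 68 genes lie before that (entries 10129 to 10196), and their counts matched signal times factor within 0.01 reads in every library.

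The tests used edgeR 4.0.16 under R 4.3.3 on the counts (quasi-likelihood, TMM factors, filterByExpr), the 9 subcutaneous libraries in one fit and the 6 of the site comparison in another, with Benjamini-Hochberg adjustment over all genes tested and a threshold of 0.05. The standard error is the log2 fold change divided by the square root of F. Alternatives were DESeq2 1.42.0, other size factors, no filter, the replicate number as a block, the 2 groups alone, and leaving out each library. Steps were tested on simulated data. The floor of 3 counts covers counting error only, whereas the standard errors and SDs include the spread between libraries. The genes and lists were chosen with earlier results of these data known. Named genes are the 10 with the highest mean CPM, up to 12 called per comparison and direction, the highest of each class and cluster, Hist1h1t, Hist1h2aa, Hist1h2ba and Hist4h4; other names are said to be chosen after their values were seen. Fits that drop 2 doubted libraries were chosen after seeing the data.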

Additional observations from a re-analysis of the deposited data

How the results depend on the processing

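No alternative called a clustered histone gene lower against TM or higher between sites, but the number called changed. In both comparisons with TM the share called lay above that of all genes in some fits and below it in others. In TMP against TM, 9 of 41 clustered histone genes were called higher (22.0%, all genes 14.3%). The count was 5 of 59 without the filter on low counts (8.47%, all genes 10.6%). It was 0 to 13 when 1 library was left out, with the shares given above. Without TM replicate 2 and TMPC replicate 1 it was 21 of 44 (47.7%, all genes 20.6%). In TMPC against TM, 14 of 41 were called higher (34.1%, all genes 18.0%). The count was 22 of 59 with DESeq2 (37.3%, all genes 16.8%). With the 2 groups alone it was 4 of only 25 tested, where 13.2% of all genes were called higher. It was 3 to 19 when 1 library was left out, with the shares of all genes given above. Without both doubted libraries it was 31 of 44 (70.5%, all genes 23.2%). Between sites, 0 of 38 were called. The count was 2 of 60 lower with DESeq2 (3.33%, all genes 15.1%) and 1 of 38 lower with RLE factors (2.63%, all genes 13.8%). It was 0 to 6 lower when 1 library was left out, the 6 being of 42 tested (14.3%, all genes 11.6%). Without subcutaneous TMPC replicate 1 and orthotopic replicate 3 it was 12 of 42 lower (28.6%, all genes 18.4%). The summed level without Hist1h2bc was 91.3 CPM in TM, 157 in TMP, 199 in subcutaneous and 122 in orthotopic TMPC tumours. With the replicate number as a block, 2 of 41 genes were called in TMP against TM (4.88%, all genes 11.4%) and 6 of 41 in TMPC against TM (14.6%, all genes 15.1%), shares below those of all genes. Nothing in the labels says that a number pairs libraries: deviations of same-numbered libraries correlated at -0.26 to 0.29, and 5, 3, 2 and 0 of 6 libraries correlated best with their own number in the comparisons TMP against TM, TMPC against TM, TMPC against TMP and site. The block changed no call in the last 2.

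Of 54 single-gene results, 23 were past the threshold and 22 of these missed it under at least 1 alternative. Of the 31 others, 12 passed under at least 1. Those that changed sign were not past the threshold in the main fits. Only Hist1h2bc between sites passed it under an alternative, as lower in orthotopic tumours without both doubted libraries (adjusted p = 0.0230, edgeR). Their ranges when 1 library, or both doubted libraries, were left out were as follows. Hist1h1c ran from -0.15 to 0.50 in TMP against TM, from -0.77 to 0.50 in TMPC against TMP, from -0.58 to 0.70 in TMPC against TM and from -0.69 to 0.69 between sites. Hist1h2be ran from -1.23 to 0.025 in TMP against TM, from -0.87 to 0.97 in TMPC against TM and from -0.31 to 0.62 between sites. Hist1h2bc ran from -0.17 to 0.72 in TMPC against TMP and from -0.93 to 0.081 between sites. Between sites Hist1h2bg ran from -0.49 to 0.45 and Hist1h4h from -0.46 to 0.97. With the replicate block, Hist1h1c turned to -0.089 in TMPC against TMP and to 0.18 between sites, and Hist1h2bg to 0.22 between sites. The cause was not tested. Counts limit most genes: all but 7 had at most 1000 counts over 12 libraries.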
